A study of Mus musculus with 6 samples.

Results

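The genes described here are 37 type I interferon stimulated genes (ISGs) measured in CD45- cells sorted from RANK-/- and RANK+/+ mammary tumors of the mouse. Probes were matched to the 37 symbols through the accession that the array files give for each probe. A probe was found for 35 of the 37, and all 35 passed the filter on dim probes and were tested, among 22502 genes or unnamed transcripts in all. The remaining members, Mx1 and Mx2, dynamin-like GTPases that restrict viruses, had no matching probe and were not analysed here. On every array, all 35 exceeded the background in Cy5 and in Cy3.

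RANK, the receptor activator of NF-kB, is encoded by Tnfrsf11a. The tumors came from MMTV-PyMT mice, in which the polyomavirus middle T oncogene is driven by a promoter that is active mainly in mammary epithelium. Cells from late carcinomas of either RANK genotype were placed orthotopically into C57BL/6 hosts. The hosts were not deleted for RANK, so both groups of tumors grew among host cells with the intact gene. Live cells without CD45, a surface protein of leukocytes, were then sorted, which leaves tumor cells together with any CD45- stroma. Each array received 1 RANK-/- RNA and 1 RANK+/+ RNA in different dyes. There were 3 such pairs of RNAs, each on 2 technical replicate arrays named A and B. Pair 1 had the RANK-/- RNA in Cy5, and pairs 2 and 3 had the RANK+/+ RNA in Cy5, so the dye arrangement and the difference between pair 1 and the other pairs cannot be told apart. It is not given in the labels that the RNAs of a genotype are from separate tumors, and p values measure only the spread between these samples.

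Type I interferons are secreted by cells that sense viral or misplaced nucleic acid. They bind the IFNAR1 and IFNAR2 receptor, which activates the kinases JAK1 and TYK2 and leads to the assembly of the complex ISGF3, which holds STAT2 and IRF9. ISGF3 binds the interferon-stimulated response element (ISRE) in the promoters of ISGs, many of which encode sensors, antiviral effectors or regulators of the pathway itself. Interferon gamma signals through a different receptor, and the genes induced by both kinds of interferon overlap.

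The deleted gene was looked at first. The Tnfrsf11a probe gave log2 ratios, as RANK-/- over RANK+/+, of 2.03 in pair 1, 1.15 in pair 2 and 1.76 in pair 3, with a mean of 1.65 ± 0.45 (SD, n = 3). All 3 RNAs labelled RANK-/- were above all 3 labelled RANK+/+, which goes against the labels. Whether the probe lies outside the deleted part of the gene is not given in the sources used here. Groups are therefore called by the label of their channel, and every direction rests on those labels.

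The upstream sequences of 5 members whose ratios differed between pairs are shown because each holds the ISRE core. The core was searched as GAAANNGAAA, where N is any base, on both strands and with overlapping matches allowed. The sequences are the 200 bases before the RefSeq start of each gene in the GRCm38.p6 assembly, 5′ to 3′ on the strand of the gene, with matches in capitals. On the opposite strand the core reads as TTTC, any 2 bases and TTTC. Isg15 (chr4:156200819-156201018, minus strand) holds 3 overlapping matches that begin 78, 72 and 66 bases before the start. Ifit1 (chr19:34640689-34640888, plus strand) and Ifit3 (chr19:34583329-34583528, plus strand) hold 2 separate matches each. Oas1a (chr5:120907526-120907725, minus strand) and Bst2 (chr8:71537473-71537672, minus strand) hold 2 overlapping matches each.
Isg15: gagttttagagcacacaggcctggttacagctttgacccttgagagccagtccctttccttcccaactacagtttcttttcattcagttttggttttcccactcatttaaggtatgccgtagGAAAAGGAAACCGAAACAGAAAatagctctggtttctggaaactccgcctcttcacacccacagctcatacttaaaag
Ifit1: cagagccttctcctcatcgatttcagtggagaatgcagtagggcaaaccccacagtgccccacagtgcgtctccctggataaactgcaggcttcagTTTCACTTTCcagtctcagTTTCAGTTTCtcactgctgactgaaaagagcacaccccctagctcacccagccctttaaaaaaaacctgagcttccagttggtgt
Ifit3: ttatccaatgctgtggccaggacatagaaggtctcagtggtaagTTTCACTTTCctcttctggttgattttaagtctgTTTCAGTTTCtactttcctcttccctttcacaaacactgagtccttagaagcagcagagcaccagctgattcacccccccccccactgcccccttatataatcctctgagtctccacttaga
Oas1a: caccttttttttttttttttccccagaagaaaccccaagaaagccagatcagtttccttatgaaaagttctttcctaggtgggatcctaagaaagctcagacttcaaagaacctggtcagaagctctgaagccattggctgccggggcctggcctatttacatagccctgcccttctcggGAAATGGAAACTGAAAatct
Bst2: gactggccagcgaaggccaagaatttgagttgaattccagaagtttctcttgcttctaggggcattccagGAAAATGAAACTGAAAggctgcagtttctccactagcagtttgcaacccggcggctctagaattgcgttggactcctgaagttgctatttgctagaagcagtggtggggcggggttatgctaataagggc

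A promoter entry, which spans 250 bases before to 50 after the start, was found for 26 of the 37 members. The core was present in 13 of these 26 (50%) and in 3.99% of all 27025 genes with an entry. A longer form, with CT after the second GAAA, was present in 26.9% of the member genes and 0.303% of all genes. The 13 with the core were Bst2, Ddx58, Eif2ak2, Ifih1, Ifit1, Ifit3, Ifitm3, Isg15, Oas1a, Oas3, Rsad2, Stat2 and Trim30a. A match describes the letters only, and a window without one says nothing of the factor. The ratios of members with and without the core stand after those of the single genes.

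Expression of the ISGs differed between the 2 RNAs of every pair, but in opposite directions. In pair 1 the ISGs were mostly lower in the channel labelled RANK-/-, and in pairs 2 and 3 they were mostly higher, although in pair 3 this held after loess and not after median centring. The median log2 ratio of the 35 members was -0.52 in pair 1, 0.93 in pair 2 and 0.40 in pair 3, where the medians of all 22502 genes were 0.02, -0.01 and 0.00. Over the 3 pairs, the median of the members' mean ratios was 0.23, and their median SD between pairs was 0.71, against 0.33 for all genes. The mean ratios ran from -0.03 for Trim30a to 0.94 for Lgals3bp.

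Within a pair, limma compared the 2 RNAs against the spread between arrays A and B, which tests those 2 RNAs and dyes and not the genotypes. In pair 1, 26 of 35 members were lower (background 34.7% of all genes) and 7 were higher (background 37.8%). In pair 2, 34 were higher (background 32.8%) and 0 lower (background 35.2%). In pair 3, 27 were higher (background 37.3%) and 4 lower (background 37.2%). With median centring in place of loess the pair 3 counts turned to 6 higher (13% of all genes) and 20 lower (67.5% of all genes). Those of pair 1 were then 9 higher (48% of all genes) and 22 lower (21.3%). Those of pair 2 were 32 higher (15.7% of all genes) and 2 lower (53.9%). The ratios of the 3 pairs differed from each other in 34 of 35 members (background 88.4%), the exception being Parp9 (adjusted p = 0.0698). Differences of at least 2-fold were found for 7 members in pair 1, all lower (20%, against 2.84% of all genes lower by as much). In pairs 2 and 3 there were 15 and 3 such members, all higher (42.9% and 8.57%, against 2.45% and 4.91% of all genes).

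**Figure D1:**
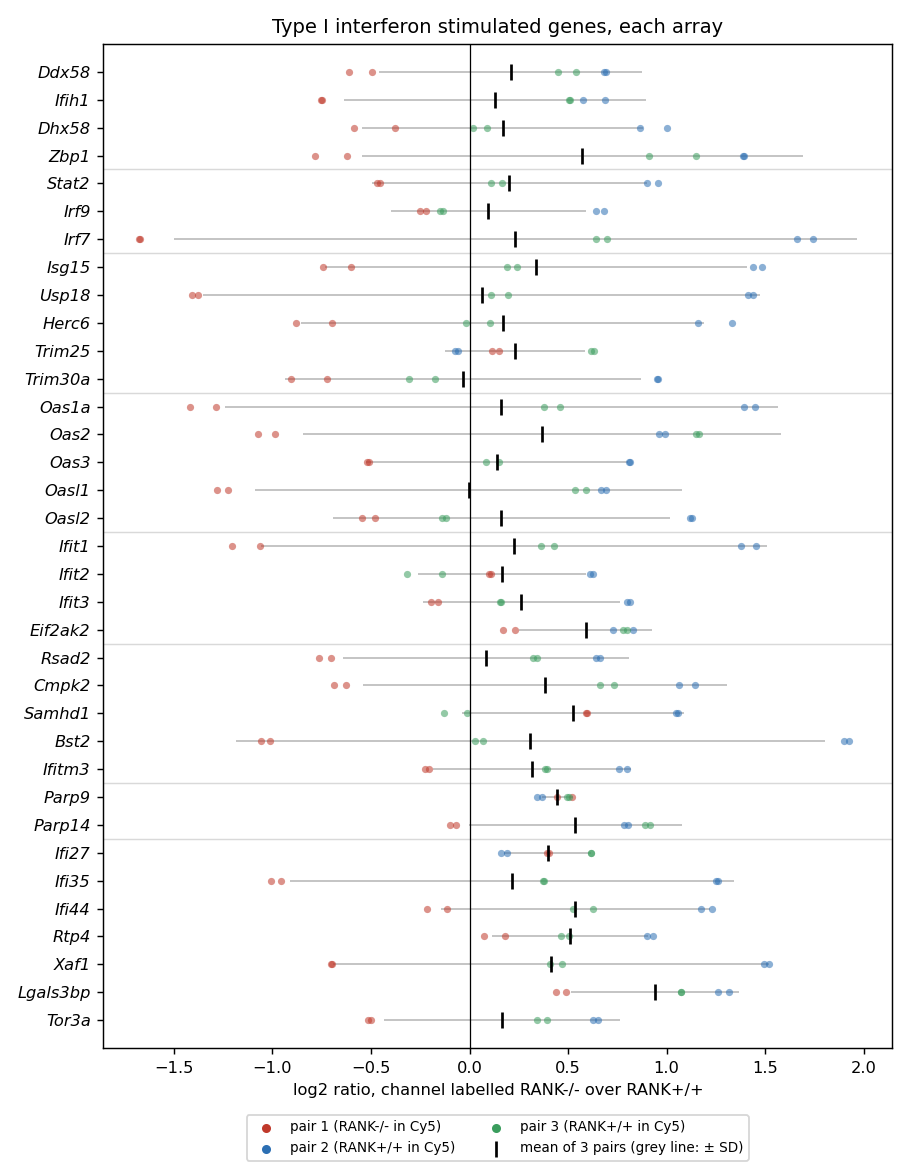
The horizontal axis gives the log2 ratio of the channel labelled RANK-/- over RANK+/+ for the 35 tested members, 1 per line, grouped by role. Each dot is 1 array, coloured by pair, black ticks are means of the 3 pairs and grey lines span ± 1 SD. The red dots of pair 1 lie below 0 for 27 members, and the blue dots of pair 2 lie above 0 for all members but Trim25.

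No member passed a test between the genotypes over the 3 pairs. By limma, 0 of 35 members were called (background 0% of 22502 genes), each with an adjusted p of 0.999, although 3 members (Lgals3bp, Eif2ak2 and Parp9) and 647 genes had an unadjusted p under 0.05. By the rank product, the kind of test the methods name, 0 members were called in either direction (background 0.0444% for higher and 0.04% for lower). Lgals3bp came closest, at a proportion of false positives of 0.417. None of the 35 had all 3 RNAs of one genotype above all 3 of the other (background 3.65% with RANK-/- higher and 3.78% with it lower). With 3 pairs the smallest p of an exact two-sided sign-flip test is 0.25, so such a test could not pass 0.05 for any gene.

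The arrangement of signs was shared by most members. A negative ratio in pair 1 with positive ratios in pairs 2 and 3 was found for 24 of 35 members (68.6%) and for 3035 of 22502 genes (13.5%). Turned to Cy5 over Cy3, the same 24 members were lower in Cy5 in all 3 pairs. Over all 35 members, the median of the mean Cy5 over Cy3 ratio was -0.58. Only 5 members were above 0 in all 3 pairs (14.3%, against 9.93% of all genes) and 0 were below 0 in all 3. This arrangement depended on the loess step for pair 3. With median centring the median of all genes moved by -0.39 in pair 3, 9 members in place of 30 were above 0 there, and 5 in place of 24 kept the arrangement. Relative to the all-gene medians of that setting, 24 members were above in pair 3, 33 in pair 2 and 9 in pair 1, and 17 kept the arrangement.

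**Figure D2:**
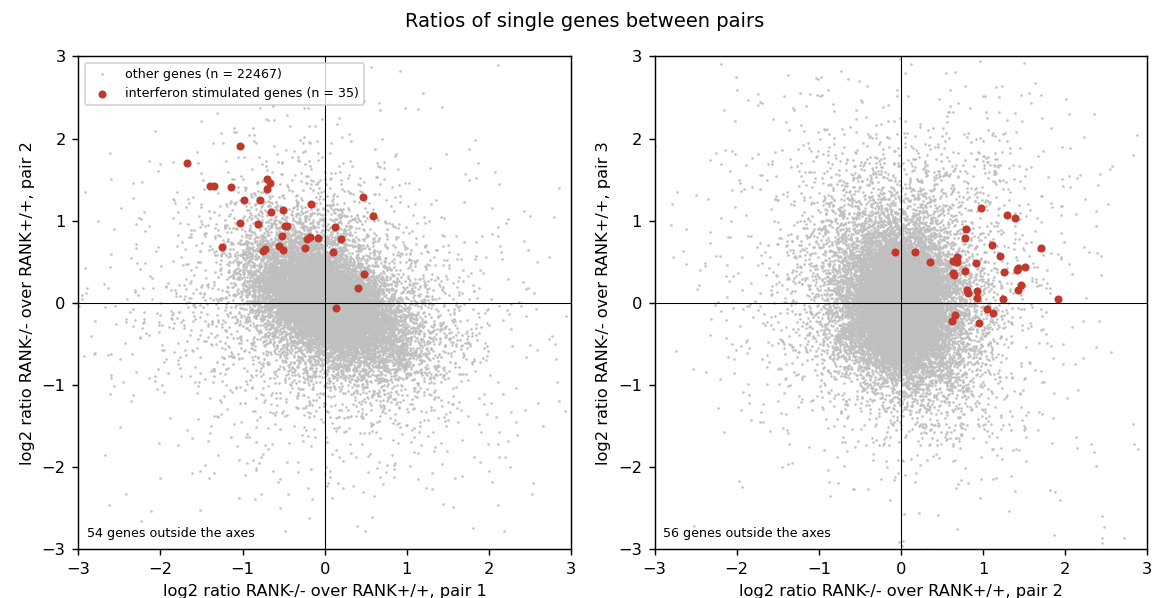
Each point is 1 gene, with its log2 ratio of RANK-/- over RANK+/+ in pair 1 against pair 2 on the left and in pair 2 against pair 3 on the right. Red points are the 35 members and grey points the other tested genes. Members gather at the upper left of the first panel, below 0 in pair 1 and above 0 in pair 2, and to the right of 0 in the second.

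The sensors of viral RNA and DNA were examined gene by gene. Ddx58, which encodes the RNA helicase RIG-I, had log2 ratios of -0.55, 0.69 and 0.49 in pairs 1, 2 and 3. Ifih1, which encodes the long double-stranded RNA sensor MDA5, had -0.75, 0.63 and 0.51. All 4 sensors were lower in pair 1 and higher in pair 2, and 3 of 4 were also higher in pair 3. Dhx58, which encodes the regulatory helicase LGP2, had -0.48, 0.93 and 0.05, and its pair 3 value did not pass (adjusted p = 0.426). Zbp1, a sensor of Z-form nucleic acid that can trigger cell death, had -0.70, 1.39 and 1.03, the widest span among the sensors. Its 2 RNAs of pair 2 stood at log2 intensities of 12.44 for RANK-/- and 11.05 for RANK+/+. Second probes of Ddx58 (0.38, 0.52 and 0.16) and Ifih1 (0.06, 0.30 and 0.22) were above 0 in pair 1 as well, so the sign of these genes in pair 1 depended on the probe.

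Transcription factors of the pathway followed. Irf7, the factor that amplifies interferon production, had log2 intensities of 11.24, 12.46 and 10.36 in the RANK-/- RNAs and 12.92, 10.76 and 9.68 in the RANK+/+ RNAs of pairs 1, 2 and 3. Its highest value was thus the RANK+/+ RNA of pair 1 and its lowest the RANK+/+ RNA of pair 3, and the genotypes overlapped. The Irf7 ratio was -1.67 in pair 1 (3.19-fold lower) and 1.70 in pair 2 (3.26-fold higher), with limma adjusted p of 3.73e-09 and 4.65e-09, and 0.67 in pair 3. Across pairs these values gave a mean of 0.23 ± 1.73 (SD, n = 3), the widest spread of any member. Stat2 and Irf9, the ISGF3 subunits on the list, moved less. Stat2 had ratios of -0.46, 0.93 and 0.14, and Irf9 of -0.23, 0.66 and -0.14, each past the within-pair threshold in all 3 pairs.

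ISG15 is a ubiquitin-like protein that is attached to other proteins or secreted. Isg15 stood at log2 intensities of 15.39, 16.01 and 13.34 in the RANK-/- RNAs and 16.06, 14.55 and 13.12 in the RANK+/+ RNAs. Its ratio was -0.67 in pair 1, 1.46 in pair 2 (2.75-fold) and 0.22 in pair 3, with a mean of 0.34 ± 1.07 (SD, n = 3). Both RNAs of pair 3 were below the other 4, and the second Isg15 probe gave the same signs (-0.96, 1.55 and 0.11). Usp18, the protease that removes ISG15 and restrains the receptor, had -1.39, 1.43 and 0.15. Herc6, the ligase that attaches ISG15 in mouse, had -0.79, 1.25 and 0.04, the last without passing (adjusted p = 0.534). Among the ubiquitin ligases, Trim30a had -0.81, 0.96 and -0.24. Trim25, which acts on RIG-I, departed from the rest: it was 0.13 in pair 1, -0.07 in pair 2 (adjusted p = 0.151) and 0.62 in pair 3, and it was the only member below 0 in pair 2.

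Oligoadenylate synthetases and their relatives had ratios of the same sign in pair 1 and again in pair 2. Several of the proteins answer double-stranded RNA by making 2′-5′ oligoadenylates that activate RNase L. All 5 were lower in pair 1 (from -1.35 to -0.51) and higher in pair 2 (from 0.68 to 1.42). In pair 3, 4 were higher and Oasl2 was lower. Oas1a had ratios of -1.35, 1.42 and 0.42, and Oas2 of -1.03, 0.98 and 1.16. Oasl1 had -1.25, 0.68 and 0.56, which averaged to -0.00375 ± 1.08 (SD, n = 3). Oas3 had -0.52, 0.81 and 0.12, and Oasl2 -0.51, 1.12 and -0.13. Mouse Oas1a has close copies in the genome, from which its probes may also take signal.

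The IFIT proteins bind foreign RNA and block its translation. Ifit1 stood at 10.27, 11.48 and 9.22 in the RANK-/- RNAs and at 11.41, 10.07 and 8.83 in the RANK+/+ RNAs. Its ratios were -1.14 in pair 1 (2.20-fold lower, adjusted p = 7.41e-08), 1.41 in pair 2 (2.67-fold higher, adjusted p = 3.03e-08) and 0.40 in pair 3. Ifit3, which has a near-identical copy that the probe may share, moved less within pairs, with -0.18, 0.81 and 0.16. Its levels differed more between pairs, with 13.06, 13.65 and 10.49 in the RANK-/- RNAs and 13.24, 12.84 and 10.33 in the RANK+/+ RNAs. Ifit2 had 0.11, which did not pass (adjusted p = 0.0784), 0.62 and -0.23. Eif2ak2, which encodes the kinase PKR that halts translation, was above 0 in all 3 pairs (0.20, 0.78 and 0.79) with a mean of 0.59 ± 0.34 (SD, n = 3).

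Restriction factors and enzymes of nucleotide metabolism showed the largest value of pair 2. Bst2, which encodes tetherin, a protein that holds budding virus at the cell surface, had ratios of -1.04, 1.92 and 0.05. The pair 2 value was 3.77-fold (adjusted p = 2.03e-09) and the pair 3 value did not pass (adjusted p = 0.279). Its levels were 14.07, 15.13 and 12.86 in the RANK-/- RNAs and 15.11, 13.22 and 12.81 in the RANK+/+ RNAs, so the RANK+/+ RNA of pair 1 and the RANK-/- RNA of pair 2 were nearly level at the top. Rsad2, which encodes viperin, had -0.73, 0.65 and 0.33, and its genomic neighbor Cmpk2, a mitochondrial nucleotide kinase, had -0.66, 1.10 and 0.70. A second Cmpk2 probe was above 0 in pair 1 (0.17). Ifitm3, which blocks viral entry, had -0.22, 0.78 and 0.39. Samhd1, which degrades deoxynucleotides, was 0.59 in pair 1, 1.05 in pair 2 and -0.07 in pair 3 (adjusted p = 0.149). Its second probe read -0.09, 1.11 and 0.31, and so differed in sign in pairs 1 and 3.

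A small set of members was above 0 in all 3 pairs. Lgals3bp, a secreted glycoprotein that binds galectins, stood at 14.94, 15.19 and 13.42 in the RANK-/- RNAs and 14.48, 13.90 and 12.34 in the RANK+/+ RNAs. Its ratios were 0.47, 1.29 and 1.07, with a mean of 0.94 ± 0.43 (SD, n = 3), and the second probe read 0.39, 0.74 and 0.76. Within each pair the RANK-/- RNA was the higher, yet the levels of pair 3 were below those of the other pairs, so the genotypes still overlapped. Parp9, which forms a complex with the ligase DTX3L, had the smallest spread of all members, with ratios of 0.48, 0.36 and 0.50 and a mean of 0.45 ± 0.08 (SD, n = 3). Ifi27, a mitochondrial protein, had 0.40, 0.17 and 0.62. Rtp4, a receptor chaperone that also limits interferon responses, had 0.13, 0.92 and 0.48. With Eif2ak2 these are the 5 members above 0 in all 3 pairs, and each passed within every pair. Parp14, a mono-ADP-ribosyltransferase, was near 0 in pair 1 (-0.08, adjusted p = 0.0727) and higher in pairs 2 and 3 (0.79 and 0.90).

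Among the remaining members, Ifi35 had -0.98, 1.25 and 0.38, and Xaf1, a proapoptotic antagonist of XIAP, had -0.70, 1.51 and 0.44. Ifi44 had -0.16, 1.20 and 0.57, and the endoplasmic reticulum ATPase Tor3a had -0.51, 0.64 and 0.37. All 4 were lower in pair 1 and higher in pairs 2 and 3.

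The spread between arrays A and B was small beside these differences. Both arrays of a pair carried the same RNAs in the same dyes, so an effect of dye would not show in that spread. Over the members, arrays A and B correlated across genes with Pearson r of 0.988 in pair 1, 0.991 in pair 2 and 0.978 in pair 3, and no member differed by more than 0.24 between A and B. The median technical SD was 0.0292 for the members and 0.0472 for all genes. Genes are not independent replicates, and these values describe the arrays.

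The level in each single RNA showed a second pattern, which lay between pairs and not between genotypes. In 34 of 35 members both RNAs of pair 3 were below the other 4 RNAs (background 4.41% of all genes), the exception being Samhd1. The corresponding count was 0 for pair 1 and 0 for pair 2, where 8.28% and 5.72% of all genes were of that kind. The lowest RNA of all was the RANK+/+ RNA of pair 3 for 30 members and the RANK-/- RNA of pair 3 for 4. The RANK+/+ RNA of pair 1 and the RANK-/- RNA of pair 2 were the 2 highest for 26 members (74.3%, against 6.63% of all genes). From the lowest to the highest RNA a member spanned between 1.05 and 3.89 log2 units, with a median of 2.49, against 0.64 for all genes. Other lists held genes of the same kind. Both RNAs of pair 3 were lowest for 12 of 19 interferon gamma induced genes, 4 of 10 class I genes, 4 of 8 macrophage markers and 2 of 6 leukocyte markers, and the RANK+/+ RNA of pair 1 and the RANK-/- RNA of pair 2 were the highest for 14 of the 19 interferon gamma induced genes. The order was described after the values were seen and was not tested.

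Set against each gene's own mean over the 6 RNAs, the median member was at 1.03 in the RANK-/- and -0.02 in the RANK+/+ RNA of pair 2, at 0.35 and 0.74 in those of pair 1, and at -0.84 and -1.32 in those of pair 3. The step between pairs 2 and 3 was thus larger than the difference between the genotypes within either. Counts of members lowest in pair 3 stayed at 34 with processed signals, with quantile normalization over the 12 channels and with median centring, settings that were chosen after seeing the data. The RANK+/+ RNA of pair 1 and the RANK-/- RNA of pair 2 were highest for 27, 26 and 20 members in these settings. The shares of all genes were 7.51%, 6.76% and 2.72%. In sorted cells from whole tumors, a lower level in every cell and a smaller share of cells with a high level cannot be told apart.

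**Figure D3:**
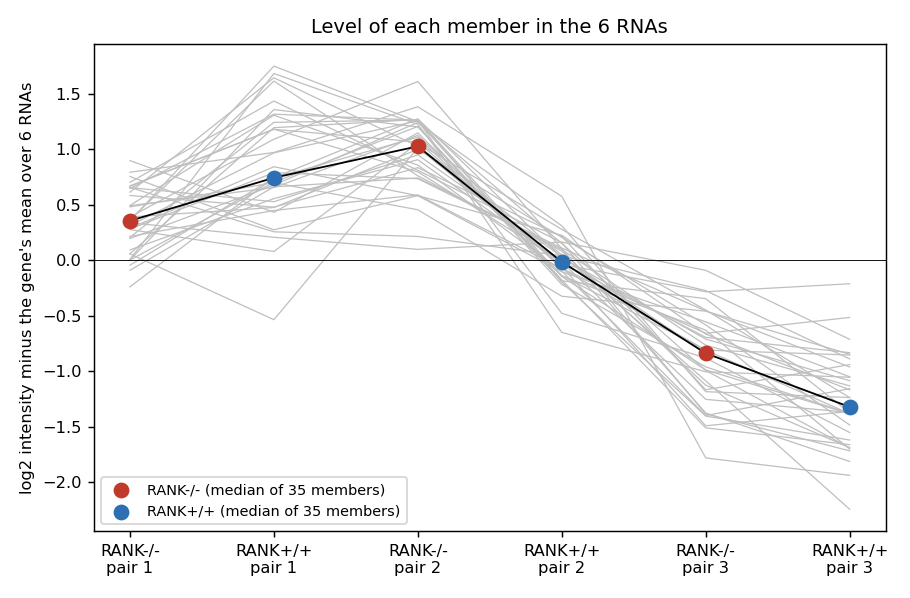
The vertical axis gives the log2 intensity of each member minus its own mean over the 6 RNAs, which are set out by genotype and pair along the horizontal axis. Grey lines join the values of 1 member and have no meaning between RNAs, and coloured points are medians of the 35 members. The points of pair 3 are lowest for both genotypes (-0.84 and -1.32).

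The ratios of members with and without the ISRE core were set side by side. The 13 with it had medians of -0.67, 0.81 and 0.33 in pairs 1, 2 and 3, and the 13 without it had -0.51, 1.12 and 0.44. The arrangement of lower, higher and higher was found in 11 of the 13 with the core, among them the 5 whose sequences are shown, and in 7 of the 13 without it, which include Irf7. These groups were not compared by a test.

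Other genes of the interferon pathway were set beside the members. Of 21 interferon ligand genes 9 were tested, with medians of 0.04, -0.04 and -0.01. Their median log2 intensities were low, between 6.48 and 6.59 in the 6 RNAs, against 8.83 to 8.86 for all genes. Ratios near 0 at such levels do not show that the ligands were unchanged. Ifnb1, the gene of interferon beta, was well above background in 3 of 6 RANK-/- and 4 of 6 RANK+/+ channels, with ratios of -0.89, -0.01 and -0.13. It was lower in pairs 1 and 3, and its RANK+/+ RNA of pair 1 was the highest (7.22, against 6.00 to 6.53 in the others). Receptor and signalling genes (17 tested) had medians of 0.26, -0.10 and 0.21. In pairs 1, 2 and 3, 12, 4 and 11 of them were higher (background 37.8%, 32.8% and 37.3% of all genes). Lower were 2, 8 and 2 (background 34.7%, 35.2% and 37.2%). Ifnar1 had ratios of 0.34, -0.04 and -0.04, and Ifnar2 1.06, -0.41 and 0.51. Irf1, which acts downstream of interferon gamma, was higher in all 3 pairs (0.29, 1.53 and 1.63), and the list ran from a mean of -0.10 for Ifngr1 to 1.15 for Irf1.

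Sensors and adaptors outside the member list (19 tested) had medians of -0.06, 0.13 and 0.36, and 6 of the 19 shared the lower, higher and higher arrangement. Their means ran from -0.32 for Cgas, the cytosolic DNA sensor, to 1.04 for Ifi204. The interferon gamma induced GTPases and chemokines had larger medians than the members in pairs 2 and 3 but not in pair 1. Over 19 tested genes they were -0.46, 1.96 and 1.18, and 14 of 19 (73.7%) shared the arrangement. In pair 1, 13 were lower and 3 higher (background 34.7% and 37.8% of all genes). All 19 were higher in pair 2 and in pair 3 (background 32.8% and 37.3%). Cxcl10, a chemokine that attracts T cells, had -1.57, 3.58 and 1.75, and Gbp4, a guanylate-binding protein, had the highest mean of that list, 1.43 ± 1.22 (SD, n = 3), where Gbp6 had the lowest, 0.30. Genes of class I antigen presentation (10 tested) were higher in pairs 2 and 3 without exception (medians 1.07 and 1.30) and stood at a median of 0.03 in pair 1. B2m, the light chain of class I molecules, had 0.22, 1.70 and 1.30 and the highest mean of that list, and the proteasome activator Psme1 had the lowest mean, 0.21. In pair 3 both lists had larger medians than the members. Differences between lists were not tested.

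**Figure D4:**
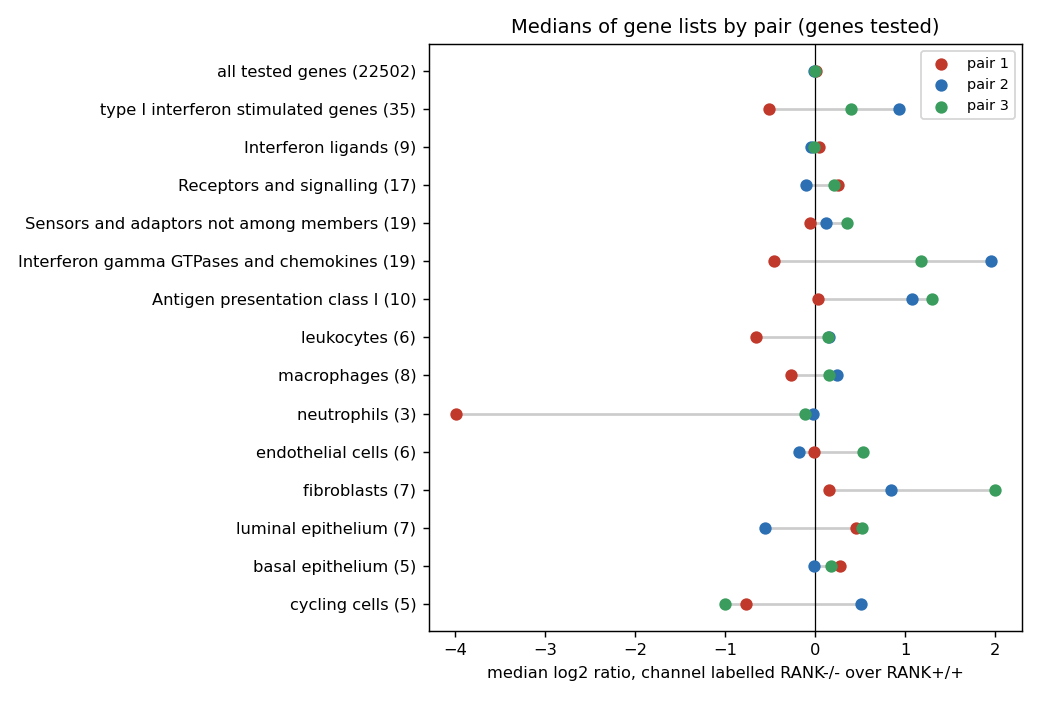
Each row is a gene list with its number of tested genes, and each dot is the median log2 ratio of RANK-/- over RANK+/+ in 1 pair. The interferon stimulated genes run from -0.52 in pair 1 to 0.93 in pair 2, and the interferon gamma list from -0.46 to 1.96.

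Markers of other cell types also moved within pairs. Leukocyte markers (6 of 9 tested) had medians of -0.66, 0.15 and 0.14, with 4 lower in pair 1 (background 34.7% of all genes). Macrophage markers (8 of 8) had -0.27, 0.25 and 0.16, and both lists had the same signs as the members. Ptprc, the gene of CD45, was well above background in 5 of 6 RANK-/- and 4 of 6 RANK+/+ channels, with ratios of -0.93, 0.10 and 0.14. The log2 of the summed leukocyte marker signal was 11.52, 11.15 and 11.03 in the RANK-/- RNAs of pairs 1, 2 and 3 and 11.84, 11.05 and 10.77 in the RANK+/+ RNAs. That of the macrophage markers was 11.54, 11.28 and 11.01 and then 12.02, 11.23 and 10.72. Both sums were thus highest in the RANK+/+ RNA of pair 1 and lowest in the 2 RNAs of pair 3, as most members were lowest there. The summed signal of the members was instead highest in the RANK-/- RNA of pair 2 (18.8, against 18.74 in the RANK+/+ RNA of pair 1). These 2 RNAs were the highest for 26 of 35 members, but for 0 leukocyte and 0 macrophage markers. The neutrophil gene S100a8 had ratios of -3.99, 0.07 and -0.11, and 3 of 5 neutrophil markers were tested. Fibroblast markers (7 of 7) had medians of 0.16, 0.85 and 2.01, with summed levels from 17.08 to 17.77 in the RANK-/- RNAs and from 15.53 to 17.10 in the RANK+/+ RNAs. Of 4 plasmacytoid dendritic cell markers 2 were tested, and they differed in sign in pair 1. Siglech had 0.42, -0.22 and 0.01, and Tcf4 had -0.35, -0.98 and 1.00. Siglech stood at log2 intensities between 15.6 and 16.1 in all 6 RNAs. Luminal epithelial markers (7 of 7) had 0.45, -0.55 and 0.52, endothelial markers (6 of 6) -0.01, -0.18 and 0.53, basal markers (5 of 5) 0.28, -0.02 and 0.17, and markers of cycling cells (5 of 6) -0.77, 0.51 and -0.997. The part of these cell types in the ISG ratios and levels was not tested.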

How the data were processed

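RNA of sorted CD45- tumor cells was measured on 6 two-color arrays, 2 technical replicates of each of 3 RANK-/- and RANK+/+ pairs. The authors scanned the arrays and extracted spots with Agilent Feature Extraction 10.7.3.1, per the labels. In the deposited scanner tables each spot has raw, background and processed intensity values and flags. A deposited table of all samples gives normalized log2 ratios of unstated direction. Against the scanner ratios it ran as RANK-/- over RANK+/+ on all arrays (r 0.948 to 0.961). Its column medians lay between -0.0080 and 0.0040.

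Median intensities were background-corrected by normexp (offset 50), normalized by intensity loess and Aquantile, and averaged over spots and over arrays A and B (limma 3.58.1, data.table (version 1.17.8), R 4.3.3). Of 55681 gene probes, 51.9% to 58.8% were well above background per channel. A probe was kept where A and B of 2 or more pairs were well above background in a genotype (30231 probes). The brightest probe stood for a gene, named through RefSeq. Outlier spots were dropped, so a few values rest on 1 array. limma (lmFit, eBayes) tested the 3 pair ratios, and the 6 arrays with pair as a factor, with Benjamini-Hochberg adjustment over all genes at 0.05. Rank products used exact counts of rank triples (Python 3.11.15, numpy 2.4.6, pandas 2.3.3, numba 0.67.0). Scripts were tested on simulated data. The number of arrays limits the precision. The methods name dye swaps, but by the labels A and B of a pair were dyed alike. The headers gave 1 slide and 1 scan for all arrays, so no batch could be fitted.

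Alternatives covered background correction, normalization, starting signal, dim probes, probe choice, technical replicates, a dye term and leaving out a pair. Any member could be named, and other genes were named as pathway or marker genes or as the extremes of a pathway list. S100a8 and Cxcl10 were chosen after their values were seen, and 1 gene of the rule is not reported here. Members and lists were chosen with earlier results of these data known. Over all genes, the deviations of the 2 RNAs of a pair from their genotype means correlated at -0.0341, -0.218 and -0.0412, so the pair was taken only as that of the hybridization.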

Additional observations from a re-analysis of the deposited data

Results flagged for a closer look

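The members' ratios ran in opposite directions in the 2 dye arrangements: 24 of 35 members were below 0 in pair 1, where RANK-/- was in Cy5, and above 0 in both pairs 2 and 3, where it was in Cy3. The difference between the arrangements was not tested, since pair 1 is the only pair of its kind, and dye and pair cannot be told apart. With median centring in place of loess the count was 5, or 17 when taken relative to the all-gene medians of that setting.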

How the results depend on the processing

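No member was called over the 3 pairs by limma or by the rank product under any normalization, filter, starting signal or probe choice that was tried, nor with a dye term or with any pair left out (0 members each). With no replicate block, taking channels as 3 RANK-/- and 3 RANK+/+ samples, the count was 0 as well. Taking the 6 arrays as separate replicates called 2 members, Parp9 (adjusted p = 0.0247) and Lgals3bp (adjusted p = 0.0361), while a random block for the pair gave 0 members (consensus correlation within pairs 0.962). Arrays A and B share their RNAs, so the first of these overstates n.

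The median of the members' mean ratios, 0.23, ran from -0.12 without pair 2 to 0.62 without pair 1. It was 0.02 with a dye term and -0.00436 with median centring, where the median of all gene means moved to -0.14. In pair 3 median centring turned the member median from 0.40 to -0.21. The mean of 25 of 35 members changed sign in some setting, 4 of them only when a pair was left out, and 10 kept their sign in all settings. Members above or below 0 in all pairs numbered 29 without pair 1 and 7 to 9 without pair 2 or 3. Members different within a pair, in either direction, moved by less than 1.5 times in number, but directions did not hold in pair 3. With median centring 6 members were higher (13% of all genes) and 20 lower (67.5%) there. The counts with loess were 27 (37.3%) and 4 (37.2%). The median of all genes in pair 3 was -0.39 with median centring, and 24 of 35 members were above it. In pair 2, 2 were lower with median centring (53.9% of all genes) in place of 0 (35.2%). With processed signals 4 were higher in pair 1 (27.2% of all genes) in place of 7 (37.8%). Genes called by the rank product numbered 19, and 36 with no filter on dim probes. The longer ISRE form lowered the share of member genes with a match from 50% to 26.9%.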
